A study of Mus musculus with 14 samples.

Results

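Striatal projection neurons, also called medium spiny neurons, are the GABAergic output cells of the striatum, and 9 genes that are widely used to mark them or their development were followed here in whole fetal brain. The members were Foxp1, Foxp2, Ebf1, Drd1, Drd2, Penk, Tac1, Ppp1r1b and Adora2a, found by their symbol among the 41844 gene symbols of the deposited tables, and all 9 were present with a single entry each. The tables come from RNA sequencing of whole brains of male mouse fetuses of a C57BL/6J background at the embryonic ages E13.5 and E18.5. The E13.5 libraries were from 4 Dio3+/+ and 2 Dio3-/- fetuses and the E18.5 libraries from 3 Dio3+/+ and 5 Dio3-/- fetuses, the Dio3-/- animals being homozygous for a mutation that inactivates the type 3 deiodinase, the enzyme that degrades thyroid hormones, without removing its mRNA. The mutation is present in every cell from conception, but its effect need not be equal across cell types or ages. According to the study, most of the genes that differed between the genotypes were not shared by the ages. The fetuses were littermates from matings of heterozygous parents.

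The values used here are 1 mean normalized count per gene and age, taken by the authors over all libraries of the age with both genotypes together. They carry no value for a single library and hence no SD, no replicate check and no test, and the genotypes are not compared. The difference in genotype mix between the ages, with 2 of 6 libraries Dio3-/- at E13.5 and 5 of 8 at E18.5, cannot be told apart from the difference in age. The libraries were also sequenced in 2 batches, and the labels do not tie a library to its batch. The means of the 2 tables were normalized separately and summed to 28582629 at E13.5 and 24565726 at E18.5. Each mean was therefore divided by its table's total and is given as a share in parts per 1000000 (ppm), and, for comparison between genes, as a level in ppm per kilobase of exon.

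Projection neurons are born from progenitors of the lateral ganglionic eminence and fall into 2 main classes. Neurons of the direct pathway project to the substantia nigra and carry the D1 dopamine receptor (Drd1) and the tachykinin precursor that yields substance P (Tac1), while those of the indirect pathway project to the external globus pallidus and carry the D2 dopamine receptor (Drd2), the enkephalin precursor (Penk) and the A2a adenosine receptor (Adora2a). Foxp1, Foxp2 and Ebf1 encode transcription factors, and Ppp1r1b encodes DARPP-32, a phosphoprotein inhibitor of protein phosphatase 1 that acts below the dopamine receptors in both classes. None of the 9 genes is confined to the striatum: Foxp1 and Foxp2 are also known from cortex and, for Foxp2, from thalamus and cerebellum, Ebf1 from hindbrain, spinal cord and mesenchyme, and Penk and Tac1 from many other brain nuclei.

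Promoter sequences are shown for the receptors that define the 2 pathways and for Tac1, since these 3 genes were among the 4 members with the largest difference between the ages. The RefSeq table of promoters, on GRCm38.p6, had an entry for 5 of the 9 members, with 2 starts for Drd1 and Ebf1, 3 for Foxp1 and 1 for Drd2 and Tac1. No entry was found there for Foxp2, Penk, Ppp1r1b and Adora2a. Each sequence below runs 5′ to 3′ on the gene's own strand and stops before the outermost annotated start of the gene, so that it holds no base of an annotated exon. Capitals mark matches to the motifs named after the sequences.
Drd1, chr13:54055706-54055908, minus strand, 203 bases: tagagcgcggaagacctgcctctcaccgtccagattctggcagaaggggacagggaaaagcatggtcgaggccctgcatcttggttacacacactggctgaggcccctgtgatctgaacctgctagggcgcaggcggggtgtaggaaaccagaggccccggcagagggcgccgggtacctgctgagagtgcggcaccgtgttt
Drd2, chr9:49340153-49340402, plus strand, 250 bases: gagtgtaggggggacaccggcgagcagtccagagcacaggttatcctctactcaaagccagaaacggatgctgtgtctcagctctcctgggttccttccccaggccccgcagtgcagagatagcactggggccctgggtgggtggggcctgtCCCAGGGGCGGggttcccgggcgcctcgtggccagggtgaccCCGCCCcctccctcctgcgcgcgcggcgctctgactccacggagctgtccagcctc
Tac1, chr6:7554811-7554878, plus strand, 68 bases: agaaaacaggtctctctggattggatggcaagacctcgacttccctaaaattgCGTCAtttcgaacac

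Over the 250 bases before each RefSeq start, both strands were searched for the TATA box (TATAAA), the GC box (GGGCGG), the half-site of the cyclic AMP response element (CRE, TGACG), a forkhead motif (TGTTTAC), the core of the EBF motif (CCCNNGGG, where N is any base) and the half-site of the thyroid hormone receptor (AGGTCA). The EBF core can overlap a GC box. The 68 bases printed for Tac1 hold 1 CRE half-site, at base 54 and read on the opposite strand, and the whole window of 250 bases holds a second at base 208 and a GC box at base 144, whereas 17.7% of the 32817 windows in the table hold at least 1. The Drd2 stretch holds 2 GC boxes, at bases 158 and 195, and an EBF core at base 153 that runs into the first of them. GC boxes are found in 32.7% and EBF cores in 11.8% of all windows. The Drd1 stretch holds no match, and the window of the other Drd1 start holds 1 GC box. Among the other members, the first listed Foxp1 start has 3 GC boxes and 1 CRE half-site, the third has 1 GC box and 1 EBF core, and the second Foxp1 start and both Ebf1 starts have none. No window of a member holds the TATA letters, the forkhead letters or the thyroid hormone receptor half-site, which occur in 12.4%, 3.16% and 14.0% of all windows, and from this nothing follows about those factors. The Drd2 window is 68.8% G or C, against a median of 52.4% over all windows, and that of Tac1 is 51.2%.

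The members Ppp1r1b, Drd1, Drd2, Tac1, Penk and Adora2a took a larger share of brain RNA at E18.5 than at E13.5. The 3 transcription factors did not differ in one direction, Ebf1 being lower by more than 2-fold and Foxp1 and Foxp2 within it. The log2 ratio of Foxp1, 0.90, was close to those of Penk, 1.02, and Adora2a, 0.99. With no spread known, these 3 cannot be said to differ. The share was more than 2-fold higher at E18.5 for 5 of the 9 members, Ppp1r1b, Drd1, Tac1, Drd2 and Penk, and more than 2-fold lower for 1, Ebf1. Among all 18779 genes with a mean of at least 10 over both ages, 12.6% were more than 2-fold higher and 7.23% more than 2-fold lower. Of all genes past 2-fold, 63.6% were higher at E18.5, but only 47.1% when the means of the 2 tables were used with no scaling between them. The median log2 ratio of E18.5 over E13.5 was 1.02 for the members and -0.07 for all genes, and each ratio moves by -0.22 without that scaling, which takes the members' median to 0.80 and that of all genes to -0.28. In whole brain, fewer cells of a type and less RNA per cell cannot be told apart.

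**Figure D1:**
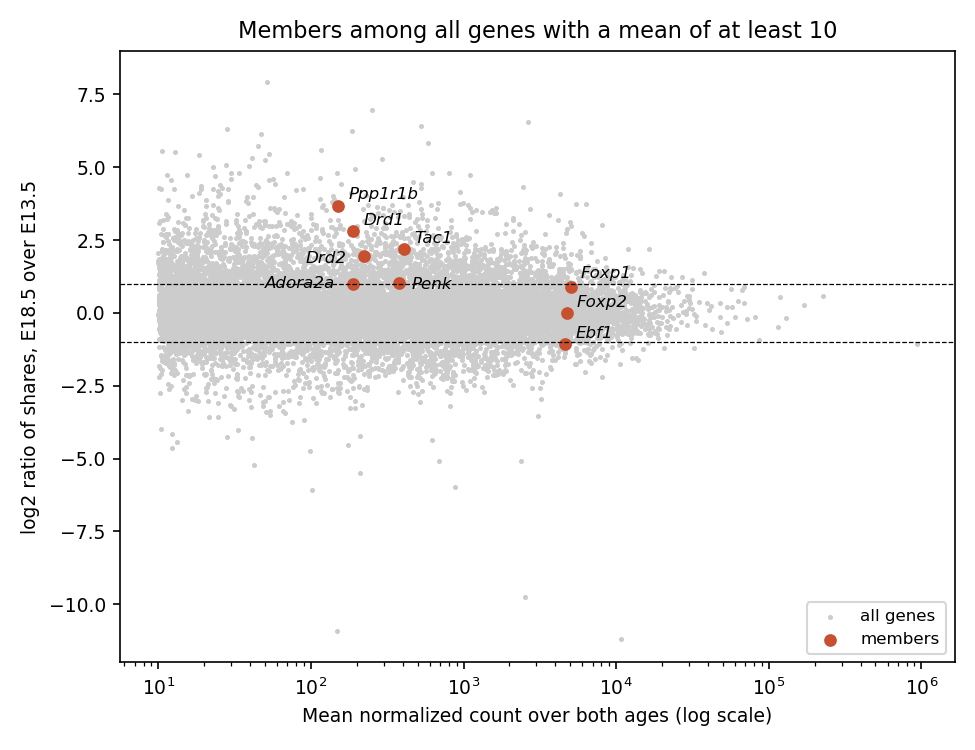
log2 ratio of the share at E18.5 over that at E13.5 (vertical axis) against the mean normalized count over both ages (horizontal axis, log scale) for all genes with a mean of at least 10 (grey) and the 9 members (red, labelled), with dashed lines at 2-fold. Ppp1r1b, Drd1, Tac1 and Drd2 lie well above the upper line, Penk and Adora2a lie on it, and the 3 transcription factors, at higher counts, lie from 0.90 for Foxp1 to -1.08 for Ebf1.

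Ppp1r1b showed the largest difference of the members. Its authors' mean normalized count was 25.0 at E13.5 and 277 at E18.5, or 0.876 and 11.3 ppm. The ratio was 12.9-fold, a log2 ratio of 3.68 that lies at the 99.5th percentile of all genes. It was the least abundant member at E13.5, at 0.299 ppm per kilobase, and stood seventh of 9 at E18.5, at 3.85. With the longest transcript as length, it was at 5.63 at E18.5, above Drd2 at 5.49. Ppp1r1b (ENSMUSG00000061718.12, chr11:98348404-98357796, plus strand, GRCm38) shares 15.7% of its exon bases with 1700003D09Rik on the opposite strand, listed at 0 at E13.5 and at a mean of 2.36 at E18.5. The counting ignored strand and assigns no read that lies on 2 genes, so reads from the shared bases are not in these values. The length holds those bases all the same, so the level per kilobase of Ppp1r1b can be too low. Ppp1r1a, the related inhibitor-1 gene, which is expressed more widely, was far more abundant per kilobase than Ppp1r1b at both ages. The ratio was 63.4-fold at E13.5 and 9.87-fold at E18.5, or 43.3-fold and 6.75-fold with the longest transcript as length.

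The dopamine receptor genes were both higher at E18.5. Drd1, which encodes the receptor coupled to stimulation of adenylyl cyclase, had a mean of 53.8 at E13.5 and 326 at E18.5. Its share was 7.05-fold higher at E18.5, a log2 ratio of 2.82. Drd2, whose receptor inhibits the cyclase, had means of 104 and 344, and its share was 3.83-fold higher, a log2 ratio of 1.94. Per kilobase, Drd2 was thus the more abundant of the pair at both ages, but by less at the later age, when Drd1 was at 0.666 times the level of Drd2 against 0.362 times at E13.5. Drd2 is also made by dopamine neurons of the midbrain and by pituitary cells. Tyrosine hydroxylase (Th), the first enzyme of dopamine synthesis, went the other way from Drd2, with means of 236 and 113 and a log2 ratio of -0.84, which passes 2-fold lower when the tables are not scaled, whereas the dopamine transporter gene Slc6a3 was higher at E18.5, with a log2 ratio of 2.29. The part of such cells in the Drd2 values was not tested. Drd1 (ENSMUSG00000021478.6) lies at chr13:54051183-54055705 on the minus strand and Drd2 (ENSMUSG00000032259.8) at chr9:49340627-49408177 on the plus strand, and neither shares exon bases with another gene.

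The other dopamine receptors were scarce beside these 2. Drd5, the close relative of Drd1, had means of 2.51 and 17.0, and Drd1 exceeded it per kilobase by 18.6-fold at E13.5 and 16.6-fold at E18.5. Drd3 had means of 2.98 and 4.20 and Drd4 means of 14.4 and 13.3. Per kilobase at E18.5, Drd2 exceeded Drd3 by 54.9-fold and Drd4 by 34.3-fold. Drd4 had a log2 ratio of 0.10, whose sign turns when the tables are not scaled.

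Of the A2a adenosine receptor gene, Adora2a, the mean was 139 at E13.5 and 238 at E18.5. Its share was 1.99-fold higher, a log2 ratio of 0.99, so that it fell just short of 2-fold and would pass it if the median ratio of all genes were set to 1. This member was in the lower part of the 9 in level per kilobase at E13.5, at 1.59 ppm, and the lowest at E18.5, at 3.16. With the longest transcript as length, Drd1 was the lowest at E18.5, at 3.71, and Adora2a was at 3.73. The A1 receptor gene Adora1, expressed across much of the brain, was below Adora2a at E13.5, at 1.24 ppm per kilobase, and 2.39-fold above it at E18.5, at 7.53, with a log2 ratio of 2.61. Adora2b had a log2 ratio of 0.25, and Adora3 remained under a mean of 10 at both ages. Adora2a (ENSMUSG00000020178.6) lies at chr10:75316877-75334784 on the plus strand.

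Among the neuropeptides, Tac1 had a mean of 163 at E13.5 and 646 at E18.5. The share was 4.60-fold higher at the later age, a log2 ratio of 2.20. Penk was the more abundant of the 2 at the earlier age, with means of 277 and 482, and differed less, by 2.03-fold or a log2 ratio of 1.02. This is just past 2-fold, and Penk does not pass it without scaling between the tables (0.80) or as a share of the protein-coding total (0.98). Per kilobase, Penk exceeded Tac1 by 3.52-fold at E13.5 and by 1.55-fold at E18.5, though with the longest transcript as length the E18.5 levels were nearly equal, Tac1 at 0.983 times Penk. Penk (ENSMUSG00000045573.9, chr4:4133531-4138819, minus strand) shares 14.3% of its exon bases with A830012C17Rik on the opposite strand, which had means of 2.57 and 2.03. Tac1 (ENSMUSG00000061762.12, chr6:7554879-7565834, plus strand) shares none. The shared bases of Penk are in its length but not in its counts, so the level per kilobase of Penk can be too low.

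The tachykinin gene Tac4 stayed low, with means of 7.91 and 6.21, so Tac1 exceeded it per kilobase by 7.60-fold at E13.5 and by 38.3-fold at E18.5, or by 13.1-fold and 65.9-fold with the longest transcript as length. Tac2 had means of 0.989 and 18.4. The substance P receptor gene Tacr1 showed almost the same share at both ages, with a log2 ratio of 0.07 that turns negative without scaling between the tables. The delta opioid receptor gene Oprd1, whose product binds enkephalin, had means of 13.3 and 68.0 and a log2 ratio of 2.57, and the kappa receptor gene Oprk1 had one of 2.31. Of the other opioid precursor genes, Pomc had a log2 ratio of 1.09 and Pnoc one of -0.47. In the whole list of 17 paralogs and partners of the members' receptors, ligands and inhibitor, 12 had a mean of at least 10. Of these, 7 were more than 2-fold higher and 0 lower, beside 12.6% and 7.23% of all genes. Without scaling between the tables these counts were 5 and 1.

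The transcription factors were the most abundant members per kilobase at E13.5 and differed among themselves. The mean normalized count of Foxp1, a forkhead factor of both projection neuron classes and of cortical neurons, was 3858 at E13.5 and 6191 at E18.5. That gave 135 and 252 ppm, a 1.87-fold higher share with a log2 ratio of 0.90, which is within 2-fold. Foxp2 means were 5120 and 4339, and its shares of 179 and 177 ppm were nearly equal, with a log2 ratio of -0.02 whose sign turns when the median ratio of all genes is set to 1. Ebf1, a factor of the early B-cell factor family with a role in the differentiation of direct pathway neurons, had means of 6577 and 2675. Its share was 2.11-fold lower at E18.5, a log2 ratio of -1.08. With the exon union as length, Foxp1 was at 0.896 times the level of Foxp2 at E13.5 and at 1.70 times at E18.5.

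Paralogs of these factors were set beside them. Foxp4 had a log2 ratio of 0.04, whose sign turns without scaling between the tables, and was above Foxp1 per kilobase at both ages, by 2.16-fold and 1.19-fold, an order that is reversed at E18.5 with the longest transcript as length. Foxp3, known from regulatory T cells, had means of 20.1 and 15.8. Ebf2 and Ebf3 were lower at E18.5 than at E13.5 by more than Ebf1, with log2 ratios of -2.30 and -1.63, while Ebf4 was within 2-fold. Ebf3 exceeded Ebf1 per kilobase by 2.12-fold at E13.5 and 1.44-fold at E18.5. Foxp1 (ENSMUSG00000030067.17, chr6:98925338-99522721, minus strand) shares 3.16% of its exon bases with Gm20696 and Gm49348 on the same strand, of which Gm20696 had means of 48.5 and 32.2. Foxp2 (ENSMUSG00000029563.16, chr6:14901349-15441977, plus strand) and Ebf1 (ENSMUSG00000057098.14, chr11:44617317-45008091, plus strand) share none.

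Ebf1, like the other members, is known outside the striatum, and it was the only member with a share more than 2-fold lower. Markers of other tissues in the samples are given beside it. All 4 markers of midbrain and hindbrain, En1 and Hoxb3 among them, were more than 2-fold lower at E18.5, beside 7.23% of all genes. The summed share of the 4 went from 93.2 to 28.4 ppm. The 3 Purkinje cell markers did not go one way, with log2 ratios of -1.98 for Skor2, 1.48 for Calb1 and 0.97 for Pcp2. Of the 3 leptomeninges markers, Lum was lower by a log2 ratio of -2.07, Col1a1 had one of -0.88, which passes 2-fold without scaling between the tables, and Dcn one of 0.38. The summed share of the 3 went from 443 to 254 ppm. No gene of these lists was at 0 at either age. The part of these tissues in the Ebf1 values was not tested.

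At E13.5 the order of levels per kilobase ran from Ebf1 at 23.6 through Foxp2 at 11.0, Foxp1 at 9.81 and Penk at 5.92 to Tac1 at 1.68, Adora2a at 1.59, Drd2 at 1.43, Drd1 at 0.519 and Ppp1r1b at 0.299. From the highest member to Drd1, the second lowest, the distance was 45.5-fold, or 73.1-fold with the longest transcript as length, and Foxp1 stood 32.8-fold above Ppp1r1b, the lowest. At E18.5 the order was Foxp1 at 18.3, Penk at 12.0, Ebf1 at 11.2, Foxp2 at 10.8, Tac1 at 7.73, Drd2 at 5.49, Ppp1r1b at 3.85, Drd1 at 3.66 and Adora2a at 3.16. Ebf1 was then 3.05-fold above Drd1, or 4.90-fold with the longest transcript, and Foxp1 4.77-fold above Ppp1r1b. With no spread over libraries, it cannot be said which neighbours in these orders differ. The levels of Ppp1r1b, Penk and Foxp1 can also be too low, since their lengths include bases shared with other genes that add no counts. Tac1 and Adora2a at E13.5 were 1.06-fold apart, and at E18.5 so close a step lay between Penk and Ebf1, 1.08-fold, Ebf1 and Foxp2, 1.03-fold, and Ppp1r1b and Drd1, 1.05-fold. The lengths matter here, since with the longest transcript in place of the exon union Foxp1, Foxp2, Ebf1 and Tac1 each come out more than 1.5-fold higher, and Penk is then behind all 3 transcription factors at E18.5. At that age Foxp2 is then also above Ebf1, Ppp1r1b above Drd2 and Adora2a above Drd1.

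**Figure D2:**
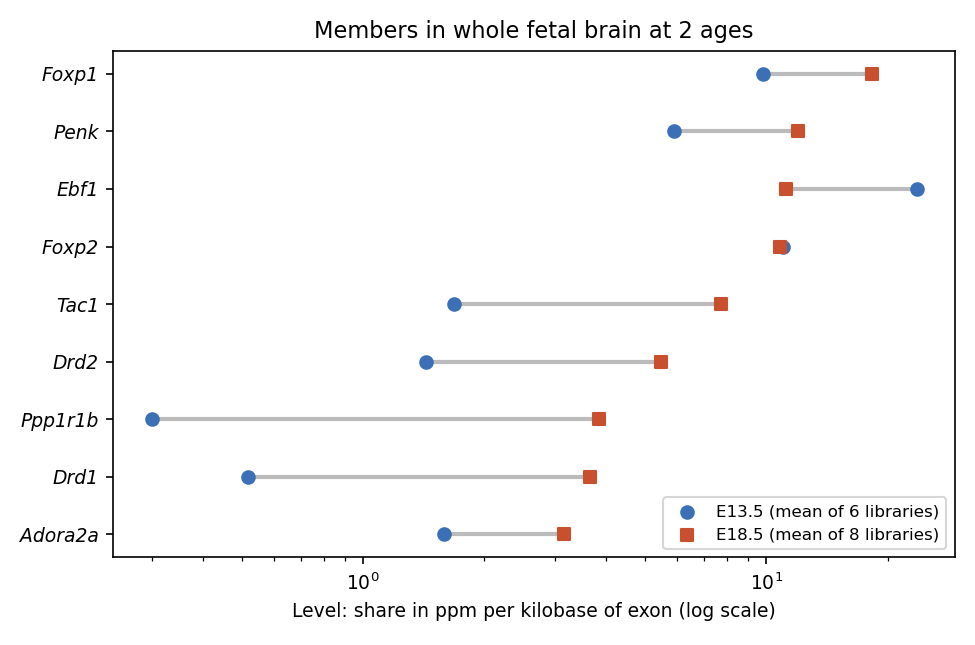
Level of each member as share in ppm per kilobase of exon (horizontal axis, log scale) at E13.5 (blue circles, authors' mean of 6 libraries) and E18.5 (red squares, authors' mean of 8 libraries), with a grey line joining the 2 ages; no error is known. The spread between the highest and the lowest member is from 0.299 to 23.6 at E13.5 and from 3.16 to 18.3 at E18.5, and the lines of Ebf1 and Foxp2 alone do not run to a higher level.

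Among the protein-coding genes with a mean above 0, 18753 at E13.5 and 19278 at E18.5, 8 of the 9 members stood at a higher percentile in level per kilobase at E18.5 than at E13.5. Drd1 stood at the 31.0th percentile at E13.5 and the 54.2nd at E18.5, and Ppp1r1b at the 26.7th and the 55.1st. Foxp1 went from the 74.1st to the 87.2nd, whereas Ebf1 went from the 90.3rd to the 78.1st.

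The other genes of the 2 pathways were read from lists that include the members. Beside their counts stand 12.6% of all genes more than 2-fold higher and 7.23% more than 2-fold lower. Of the 8 direct pathway genes, 4 were more than 2-fold higher at E18.5 and 1 lower, the median log2 ratio being 1.00. Of the 5 of them that are not members, 2 were higher and 0 lower, with a median of 0.68. The 2 were the muscarinic M4 receptor gene Chrm4, with means of 26.1 and 56.1, and Slc35d3, with means of 38.8 and 85.9. The dynorphin precursor gene Pdyn, with means of 169 and 232, and the transcription factor gene Isl1, with means of 1238 and 631, were within 2-fold, as was Eya1. Of the 7 indirect pathway genes, 4 were higher and 0 lower, with a median of 1.02, and of the 4 that are not members 2 were higher and 0 lower, with a median of 1.09. These 2 were the orphan receptor genes Gpr6, with a log2 ratio of 2.76, and Gpr52, with one of 2.36. The factors Six3 and Sp9, which act in the development of indirect pathway neurons, were within 2-fold, with means of 1111 and 708 for Six3 and of 820 and 621 for Sp9. The counts of the direct pathway list were equal under every scaling tried, while those of the indirect pathway list became 3, without Penk, when the tables were not scaled or shares were taken of the protein-coding total, and 5 with the median ratio set to 1, with Adora2a.

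Genes shared by both classes were read as a list of transcription factors and a list of signalling genes. The former holds the members Foxp1 and Foxp2 and the latter the member Ppp1r1b. Of 9 transcription factor genes, 0 were more than 2-fold higher and 1 was lower, Zfp503, at 16.9 and 6.40 ppm per kilobase. Their median log2 ratio was 0.18, or -0.04 without scaling between the tables. Bcl11b, which encodes CTIP2, a factor needed for projection neuron differentiation, and Meis2 were the most abundant of them at E18.5, at 49.3 and 36.1, with log2 ratios of 0.63 and 0.03, of which the latter turns negative without scaling or as a share of the protein-coding total. Of 13 signalling genes, 8 were higher and 0 lower, with a median of 1.23, and Rgs9 alone does not pass without scaling. Leaving out Ppp1r1b, 7 of 12 were higher and 0 lower, with a median of 1.20, beside 12.6% and 7.23% of all genes. Gnal, which encodes the G protein alpha subunit that couples D1 and A2a receptors to adenylyl cyclase, went from 4.93 to 23.9 ppm per kilobase, and its partner gamma subunit gene Gng7 from 3.41 to 14.4. The cyclase gene Adcy5, with means of 2059 and 3055, and the phosphatase gene Ptpn5, with means of 3427 and 4062, were within 2-fold. Cnr1, the cannabinoid receptor gene, was the most abundant of the list at E18.5, at 50.8 ppm per kilobase, with a log2 ratio of 0.61.

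The progenitor genes of the lateral ganglionic eminence went in the opposite direction or stayed within 2-fold. Of 9 genes, 0 were higher and 3 lower at E18.5, beside 12.6% and 7.23% of all genes. Their median log2 ratio was -0.43. The homeobox genes Gsx1 and Gsx2, which pattern these progenitors, had means of 241 and 34.0 and of 114 and 38.4. Without scaling between the tables Vax1 was lower as well. Dlx1 and Dlx2, which remain on in newborn neurons, were at 17.7 and 12.6 ppm per kilobase at E18.5, with log2 ratios of 0.21 and -0.37, the first of which turns negative without scaling. Of 8 genes that distinguish striosome from matrix, the 2 compartments of the striatum, 5 were higher and 0 lower, with a median of 1.60. Leaving out the member Tac1, 4 of 7 were higher and 0 lower, with a median of 1.48. Rasgrp2, a matrix gene, had the highest log2 ratio of that list, 3.30, and the mu opioid receptor gene Oprm1, a striosome gene, had one of 2.35. Khdrbs3 and Epha4 were the most abundant of them at E18.5, at 39.1 and 32.8 ppm per kilobase, and both were within 2-fold.

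**Figure D3:**
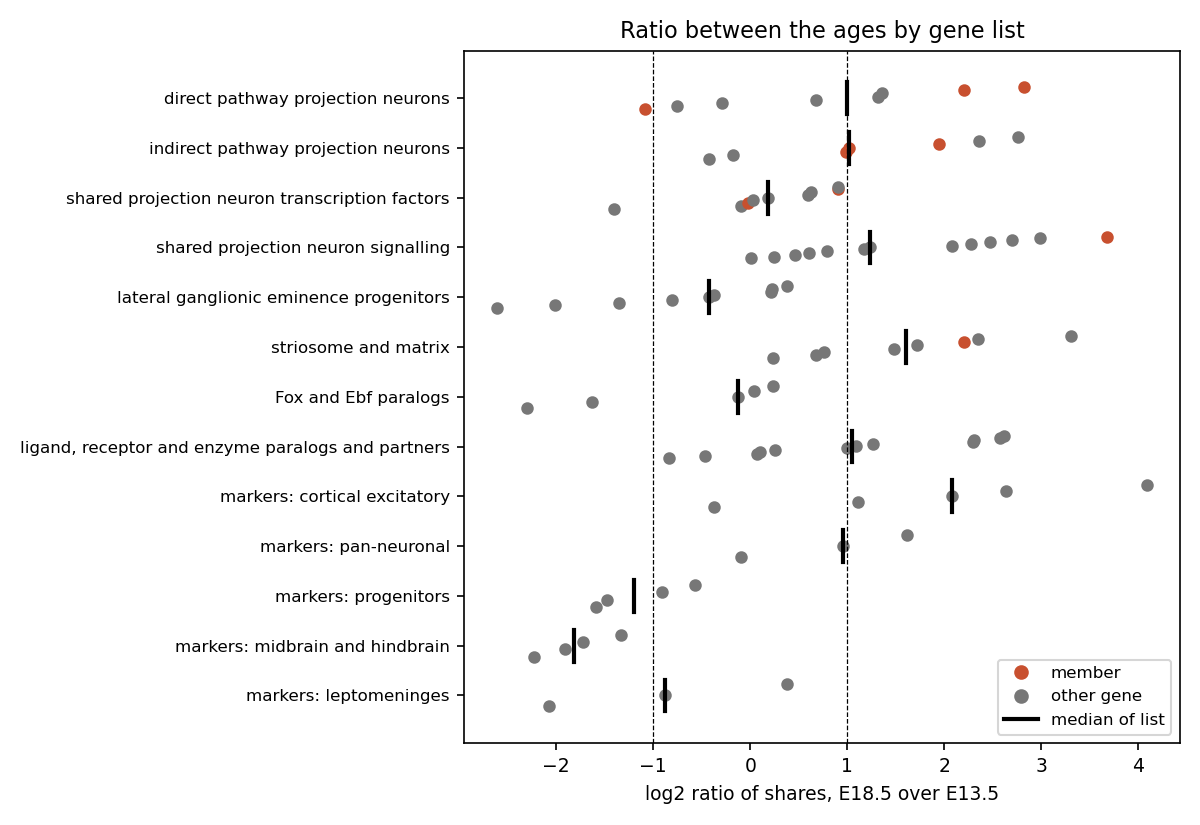
log2 ratio of the share at E18.5 over that at E13.5 (horizontal axis) for each gene with a mean of at least 10 in 8 lists of striatal and related genes and 5 marker lists (rows), with members in red, other genes in grey, the median of each list as a black bar and dashed lines at 2-fold. The medians of the signalling list and of the striosome and matrix list, 1.23 and 1.60, lie to the right of the transcription factor list at 0.18 and the progenitor list at -0.43, and the cortical excitatory markers, at 2.08, lie to the right of all of these.

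Higher shares at E18.5 were also seen for neuronal genes of other regions. Of 5 markers of cortical excitatory neurons, 4 had a share more than 2-fold higher at E18.5, beside 12.6% of all genes. The median log2 ratio was 2.08, and Tbr1 does not pass 2-fold without scaling between the tables. Slc17a7, a vesicular glutamate transporter gene, had a log2 ratio of 2.64 and Emx1 one of -0.37. Neurod6 was the most abundant of them, at 28.4 ppm per kilobase at E13.5 and 120 at E18.5. The summed share of the 5 went from 179 to 808 ppm. Of the pan-neuronal markers, Snap25, a synaptic vesicle fusion gene, had a log2 ratio of 1.61, the neuronal nuclear antigen gene Rbfox3 one of 0.96 and the tubulin gene Tubb3 one of -0.10, the last of which turns positive under no scaling tried. The summed share of the 3 was 1427 ppm at E13.5 and 1540 at E18.5. Markers of cycling and early progenitors had log2 ratios from -0.57 for Pax6 to -1.59 for Mki67, with Sox2 at -0.91, which passes 2-fold without scaling, and Hes5 at -1.48. No marker of these lists was at 0 at either age, and the part of the change in neuronal and progenitor RNA in the members' ratios was not tested.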

How the data were processed

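RNA from whole brains of individual male fetuses had been depleted of ribosomal RNA and sequenced as single-end reads in 2 batches. According to the submitters' processing notes and the study's methods, reads were trimmed with cutadapt 3.1, aligned to GRCm38 with STAR 2.5.3a, counted on GENCODE genes with HTSeq without strand, adjusted between batches with ComBat-seq and compared between genotypes with DESeq2 1.30.1. Batch adjustment can change the level of a gene.

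The mean normalized count deposited by the authors for each age is a signal, averaged over all libraries of that age once each had been divided by its size factor. The other deposited columns hold the authors' own comparison of the genotypes (log2 fold change, its standard error, statistic, p-value, adjusted p-value and a mark for significance) and were not used. With no column per library, the tables do not show how deeply each was sequenced, and no test, error or interval could be computed.

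Means were divided by the table total, as parts per 1000000, (Python 3.11.15, pandas 2.3.3) and by the exon union length of GENCODE M21, one release older than the authors' annotation and on the same build. Ratios are shown for genes with a mean of at least 10 over both ages, past 2-fold being the threshold, with no pseudocount. The arithmetic of the ratios was checked on the E13.5 means with known changes and no added noise, which says nothing about their precision. Of entries sharing a symbol, that with the highest mean was used. Members are named in full. Of each list, the 2 most abundant genes per kilobase at E18.5 and the 2 with the largest ratio are named, except some that are not reported here, and other genes were named after their values were seen. The members and lists were chosen with earlier results of these data known. Alternatives were other scalings, lengths, filters, thresholds and a pseudocount of 1. Promoter sequences are from RefSeq.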

Additional observations from a re-analysis of the deposited data

How the results depend on the processing

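The counts of members past 2-fold were 5 higher and 1 lower, beside 12.6% and 7.23% of all genes. With a 4-fold threshold they were 3 higher (Ppp1r1b, Drd1 and Tac1) and 0 lower, beside 3.86% and 1.38% of all genes, and with a 1.5-fold threshold 7 and 1, beside 21% and 17.5%. Without scaling between the tables, 4 were higher and 1 lower, beside 9.87% and 11.1% of all genes. As shares of the protein-coding total, the counts were also 4 and 1, beside 11.9% and 7.72%. With the median ratio of all genes set to 1, they were 6 and 1, beside 13.6% and 6.45%. A pseudocount of 1, the sum of entries with a symbol and minimum means of 1 or 50 left the counts at 5 and 1. Beside them stood 12.3% and 6.93% of all genes with the pseudocount and 12.6% and 7.23% with the sum. The shares were 15.7% and 9.21% with a minimum mean of 1, and 11.1% and 6.85% with a minimum mean of 50. Of the 18 levels per kilobase, 8 moved by more than 1.5-fold with the longest transcript as length. The fits planned for values per library (DESeq2 size factors against TMM, no filter on low counts, each replicate left out) were not run. No paired analysis was possible because the tables hold no column for a single library. For the same reason the spread between fetuses and the depth of each library cannot be read from the tables, and low means such as that of Ppp1r1b at E13.5, 25.0, have no stated precision.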

Other observations

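Markers of cell types outside the neuronal lineages differed between the ages in both directions. The astrocyte genes Gfap and Aqp4 had mean normalized counts of 4.71 and 92.8 at E13.5 and of 501 and 2112 at E18.5, the highest log2 ratios of any marker list, 6.95 and 4.73. The oligodendrocyte lineage genes Olig2 and Pdgfra had log2 ratios of 0.98 and 0.99, just within 2-fold, and pass it when the median ratio of all genes is set to 1. The microglial genes Csf1r and Cx3cr1 had ratios of 0.34 and 0.27, and the endothelial genes Cldn5 and Pecam1 of 0.86 and -0.11, the last of which turns positive under no scaling tried. The globin genes Hba-a1 and Hbb-bt were lower at E18.5, with log2 ratios of -1.35 and -1.53.

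Other regions of the forebrain differed as well. The interneuron genes Sst, Npy and Lhx6 had log2 ratios of 1.17, 2.05 and 1.26, of which that of Sst does not pass 2-fold without scaling between the tables, while Nkx2-1, the gene that specifies the medial ganglionic eminence, had one of -1.20. Of the diencephalic genes, Gbx2 had a ratio of -1.27, Lhx9 of -0.98 and Tcf7l2 of -0.25.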
